A study of Homo sapiens with 12 samples.

Results

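The genes described here are those of the mitochondrial ribosomal proteins, taken as every row of the deposited count table whose symbol starts with MRPL or MRPS followed by a number, without pseudogene and antisense rows. There were 76 such genes among the 19504 rows with a symbol: 48 named MRPL, for the large subunit, and 28 named MRPS, for the small subunit. All 76 passed the filter on low counts, which 12392 genes passed. MRPL45 and MRPS21 were not analysed here. The prefix does not always give the subunit: MRPS30 and MRPS18A sit in the large subunit in structures of the human ribosome, and MRPS36 is now placed in the oxoglutarate dehydrogenase complex, so that by structure the set holds 50 large-subunit proteins, 25 small-subunit proteins and 1 protein outside the ribosome.

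The mitochondrial ribosome translates the few messenger RNAs encoded by mitochondrial DNA, all of which code for subunits of the respiratory chain and of ATP synthase. Its RNAs come from mitochondrial DNA, but its proteins are encoded in the nucleus, made in the cytosol and imported, some of them counterparts of bacterial ribosomal proteins and others found in mitochondria alone. Acute myeloid leukaemia cells are known to depend on mitochondrial translation and respiration.

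RNA was measured by QuantSeq 3' mRNA sequencing in MV4-11 and OCI-AML3, both established lines of human acute myeloid leukaemia cells. In MV4-11 the gene of the receptor tyrosine kinase FLT3 holds an internal tandem duplication (FLT3-ITD), whereas OCI-AML3 lacks that duplication and has a mutant NPM1. Each line received the vehicle DMSO or 5 nM AC220 (quizartinib), a FLT3 inhibitor, for 24 h, with 3 libraries in each of the 4 groups. The labels do not say that replicates were separate cultures, and a p-value here reflects library-to-library spread that may be technical. Each line stands for 1 genetic background.

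Libraries held 10877198 to 16918761 counts. Levels are given as CPM, the counts scaled to a common library size after scaling by the trimmed mean of M values. Since reads come from the 3' end, a count does not grow with the length of the transcript. Of 10 myeloid markers all 10 were tested. Their summed level ran from 871 to 898 CPM in MV4-11 DMSO and 1073 to 1151 in MV4-11 AC220. It ran from 1660 to 1720 in OCI-AML3 DMSO and 1696 to 1743 in OCI-AML3 AC220. The markers did not move as one in MV4-11. With AC220 6 were higher (60.0%) and 2 lower (20.0%), by the test given below, where 31.5% and 26.9% of all genes tested were. The lower ones were CTSG (257 to 170 CPM) and the scarce CD14 (0.328 to 0.031 CPM). The part of these shifts in the changes below was not tested. HBB, HBA1, CD3E and EPCAM, which define other cell types, had no count in any library, while NKG7 rose from 12.1 ± 0.805 to 25.5 ± 2.77 CPM and KRT8 from 10.6 ± 0.249 to 15.9 ± 3.50 CPM (SD, n = 3) in MV4-11. AC220 replicate 1 of MV4-11 and replicate 3 of both OCI-AML3 groups stood apart from the other libraries of their groups (chi-square per degree of freedom 9.56 and 10.6, 6.59 and 6.65, and 7.04 and 8.65). Counts of members called for AC220 within each line are also given without them. For the other comparisons, ranges over each library left out are given. In bulk RNA fewer cells of a type and less RNA per cell cannot be told apart.

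Members were moderately expressed. Mean levels over the 12 libraries ran from 3.05 CPM for MRPL39 to 208 CPM for MRPS27, a pentatricopeptide-repeat protein of the small subunit, with a median of 58.0 CPM. After MRPS27 came MRPL20 with 187, MRPS34 with 154, MRPS18B with 153 and MRPL51 with 152 CPM, and above MRPL39 at the low end stood MRPL2 with 11.5 and MRPL50 with 11.7 CPM. The median level was 52.5 CPM for MRPL genes (3.05 to 187) and 68.0 CPM for MRPS genes (18.1 to 208). Although nearly all of these proteins are present in a single copy per ribosome, the levels of their transcripts spanned a 68.2-fold range.

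The first comparison asked how FLT3 inhibition changed these transcripts in the FLT3-ITD line. In MV4-11, AC220 lowered 48 of the 76 members, raised 6 and left 22 on neither side of the threshold (edgeR's quasi-likelihood test, Benjamini-Hochberg adjusted p under 0.05 over all tested genes). Over all genes tested, 26.9% were lower and 31.5% higher, against 63.2% and 7.89% of the members. The median log2 fold change of the members was -0.31 (quartiles -0.50 and -0.17), beside 0.07 over all genes. Single changes were small: they ran from -1.10 to 0.56. In 53 members all AC220 libraries lay below all DMSO libraries, and in 8 members all lay above; over all genes tested this held for 28.9% and 33.5%. Without AC220 replicate 1 the counts were 51 lower and 4 higher. Of the 48 lower members, 41 were called whichever library was left out, and of the 6 higher members 3 were (MRPS7, MRPS27 and MRPS36).

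**Figure D1:**
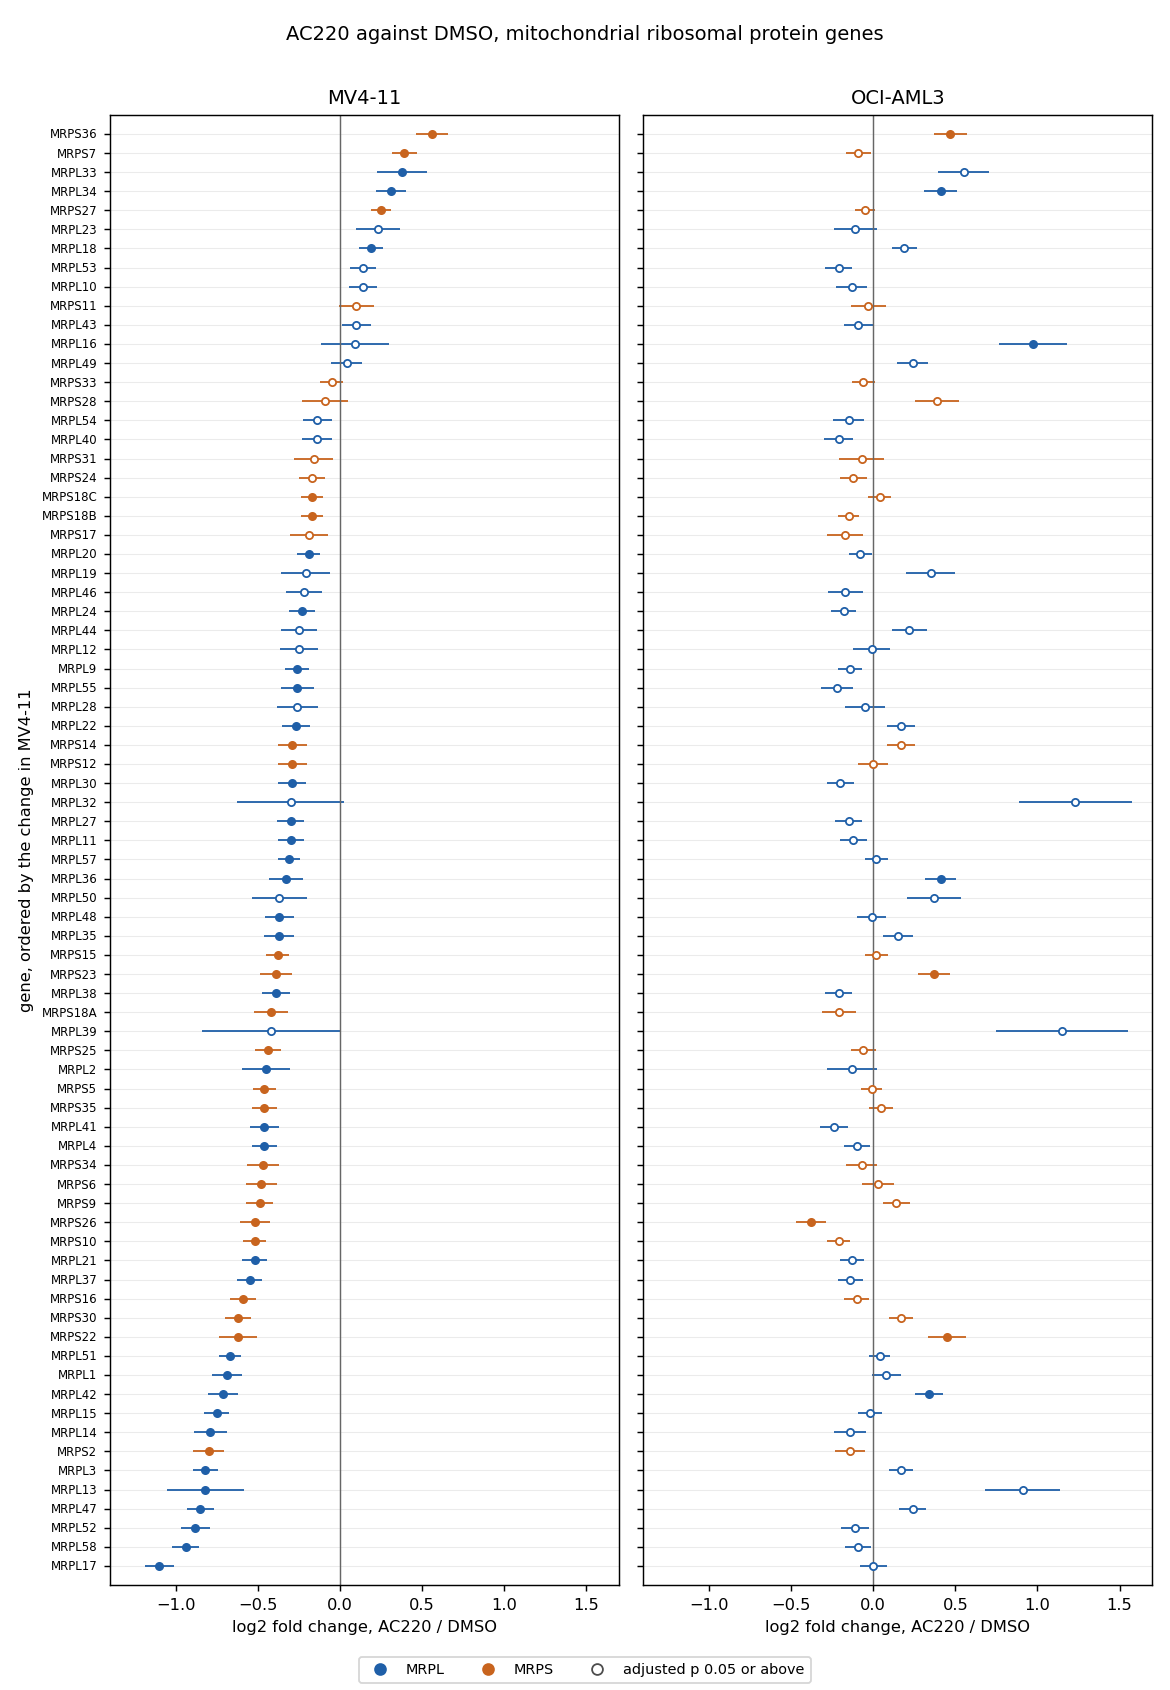
Log2 fold change of AC220 against DMSO for the 76 mitochondrial ribosomal protein genes in MV4-11 (left) and OCI-AML3 (right), in the same gene order, sorted by the MV4-11 value; points are edgeR estimates, bars 1 standard error, and open points have an adjusted p of 0.05 or above. In MV4-11 48 filled points lie left of 0 and 6 right of it; in OCI-AML3 1 lies left and 7 right.

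Both subunits held far more lower than higher members in MV4-11. Of 48 MRPL genes 29 were lower and 3 higher (60.4% lower, median log2 fold change -0.30), and of 28 MRPS genes 19 were lower and 3 higher (67.9% lower, median -0.38). With the proteins placed by structure, 31 of 50 large-subunit genes were lower and 3 higher (median -0.31), and 17 of 25 small-subunit genes were lower and 2 higher (median -0.38). Members are not replicates, so the difference of the medians by symbol, 0.08, has no test.

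Summed over members, the level in MV4-11 was 5453 ± 82.7 CPM with DMSO and 4408 ± 42.1 CPM with AC220 (SD, n = 3), with no overlap of the libraries. These sums made up 0.557% to 0.565% of all counts under DMSO and 0.414% to 0.435% under AC220. MRPL genes summed to 3247 ± 36.9 CPM with DMSO and 2557 ± 54.6 CPM with AC220. MRPS genes summed to 2206 ± 48.1 and 1851 ± 68.1 CPM. The ratio of the MRPL to the MRPS sum was 1.46, 1.47 and 1.49 in the DMSO libraries and 1.47, 1.32 and 1.35 in the AC220 libraries. The ratio of AC220 replicate 1 lay inside the DMSO range, and the other 2 lay below it. In OCI-AML3 the sum of all members was 5334 ± 137 CPM with DMSO and 5328 ± 98.1 CPM with AC220, a difference smaller than either SD. The ratio there was 1.35, 1.35 and 1.32 under DMSO and 1.37, 1.40 and 1.42 under AC220, without overlap and in the other direction.

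**Figure D2:**
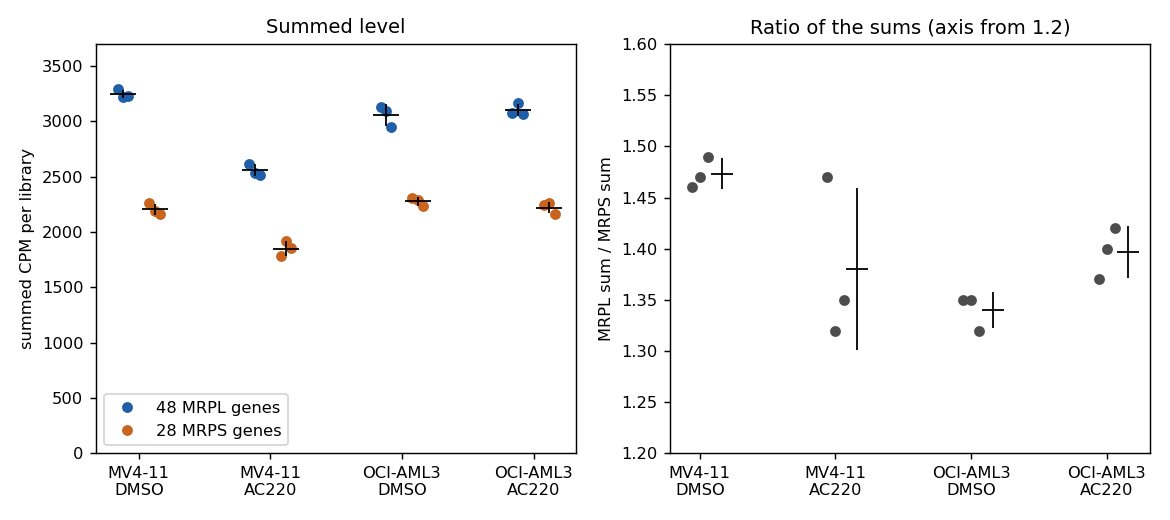
Left, summed CPM of the 48 MRPL and the 28 MRPS genes in each library; right, the ratio of the 2 sums, on an axis that starts at 1.2. Points are libraries, and horizontal marks with bars are means ± SD of 3 libraries; both sums are lowest in MV4-11 AC220, where the ratio spans 1.32 to 1.47.

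The members with the largest falls in MV4-11 were mostly proteins of the large subunit. MRPL17, the counterpart of bacterial bL17, had 52.9, 48.8 and 53.9 CPM with DMSO and 23.2, 25.8 and 23.6 CPM with AC220. Every AC220 library lay below every DMSO library, a 2.15-fold fall (log2 fold change -1.10, SE 0.0866, adjusted p = 5.49e-12). MRPL58, a relative of translation release factors that kept the ability to hydrolyse peptidyl-tRNA, had 86.1, 89.9 and 90.5 CPM against 45.8, 45.1 and 47.5 CPM (log2 fold change -0.94, SE 0.0805, adjusted p = 3.21e-11). Its libraries fell into separate, narrow ranges. MRPL52, a protein found in mitochondrial ribosomes and not in bacterial ones, had 118, 120 and 117 CPM against 59.6, 62.6 and 70.7 CPM (log2 fold change -0.88, SE 0.0863, adjusted p = 5.95e-10), again without overlap.

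MRPL47, the counterpart of bacterial uL29 at the exit of the peptide tunnel, had 76.3, 75.3 and 77.2 CPM with DMSO and 47.2, 41.8 and 37.9 CPM with AC220 (log2 fold change -0.85, SE 0.0839, adjusted p = 7.36e-10). MRPL3, the counterpart of uL3 close to the peptidyl transferase centre, had 116, 126 and 116 CPM against 73.8, 62.6 and 66.0 CPM (log2 fold change -0.82, SE 0.0749, adjusted p = 1.37e-10). Both genes had every AC220 library below every DMSO library. MRPL14, the counterpart of uL14 and the docking site of the assembly factor MALSU1, had 53.0, 52.0 and 44.9 CPM against 28, 31.6 and 27.2 CPM (log2 fold change -0.79, SE 0.0998, adjusted p = 7.89e-08). MRPL13, the uL13 counterpart, had 50.5, 63.2 and 60.3 CPM against 43.8, 30.3 and 23.9 CPM (log2 fold change -0.82, SE 0.235, adjusted p = 0.0144). The AC220 libraries of MRPL13 were spread more widely than those of the other genes named here, and without AC220 replicate 2 the adjusted p was 0.0531. The last exon of MRPL47 overlaps that of ACTL6A on the other strand in the GENCODE v29 annotation, and the strand setting of the counting was not given in the sources used here, so reads of the 2 genes may not be told apart.

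MRPS2, the counterpart of uS2, was the small-subunit member with the largest fall. It had 67.1, 56.8 and 56.1 CPM with DMSO and 30.2, 35.2 and 38.1 CPM with AC220, without overlap (log2 fold change -0.80, SE 0.0945, adjusted p = 2.14e-08). Next among the MRPS symbols came MRPS22 and MRPS30. MRPS22, of the small subunit, had 41.8, 41.1 and 48.1 CPM against 34.4, 25.6 and 24.6 CPM (log2 fold change -0.62, SE 0.115, adjusted p = 3.46e-05). MRPS30, which sits in the large subunit, had 55.7, 58.6 and 51.8 CPM against 37.4, 34.8 and 36.0 CPM (log2 fold change -0.62, SE 0.0806, adjusted p = 1.37e-07). MRPS16 followed with a log2 fold change of -0.59 (adjusted p = 1.78e-07), and MRPS10 and MRPS26 both with -0.52; MRPS22, MRPS30, MRPS16, MRPS10 and MRPS26 are named after their values were seen.

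The 6 rises were small and came from both prefixes. MRPS36, the protein now assigned to the oxoglutarate dehydrogenase complex of the citric acid cycle, had 22.2, 21.1 and 22.1 CPM with DMSO and 34.7, 31.0 and 30.8 CPM with AC220 (log2 fold change 0.56, SE 0.0986, adjusted p = 1.55e-05). Its AC220 libraries all lay above the DMSO libraries, so that the largest rise in the set belonged to the 1 member outside the ribosome. MRPS7, the counterpart of uS7 in the head of the small subunit, had 91.6, 93.6 and 91.1 CPM against 109, 138 and 114 CPM (log2 fold change 0.39, SE 0.0758, adjusted p = 7.37e-05). MRPS27 had 188, 180 and 184 CPM against 210, 222 and 226 CPM (log2 fold change 0.25, SE 0.0600, adjusted p = 0.000695). Both were called whichever library was left out. The last exon of MRPS7 overlaps an exon of MIF4GD on the other strand, with the same limit as for MRPL47.

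The other 3 rises depended on single libraries. MRPL34, the counterpart of bL34, had 95.1, 94.4 and 104 CPM with DMSO and 142, 117 and 105 CPM with AC220 (log2 fold change 0.31, SE 0.0934, adjusted p = 0.00586), and without AC220 replicate 1 the adjusted p was 0.0738. MRPL33, the counterpart of bL33, had 76.0, 79.7 and 80.9 CPM against 128, 90.9 and 88.8 CPM (log2 fold change 0.38, SE 0.152, adjusted p = 0.0486). In both genes replicate 1 was the highest of the AC220 libraries. MRPL18, the uL18 counterpart in the central protuberance, had 77.5, 85.1 and 85.9 CPM against 101, 90.0 and 91.2 CPM (log2 fold change 0.19, SE 0.0740, adjusted p = 0.0312). The adjusted p of MRPL33 passed 0.05 in 10 alternatives (0.0648 to 0.147), and without AC220 replicate 1 it was 0.147, with a log2 fold change of 0.19; that of MRPL18 did so in 6 (0.0511 to 0.174), the highest without DMSO replicate 1.

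**Figure D3:**
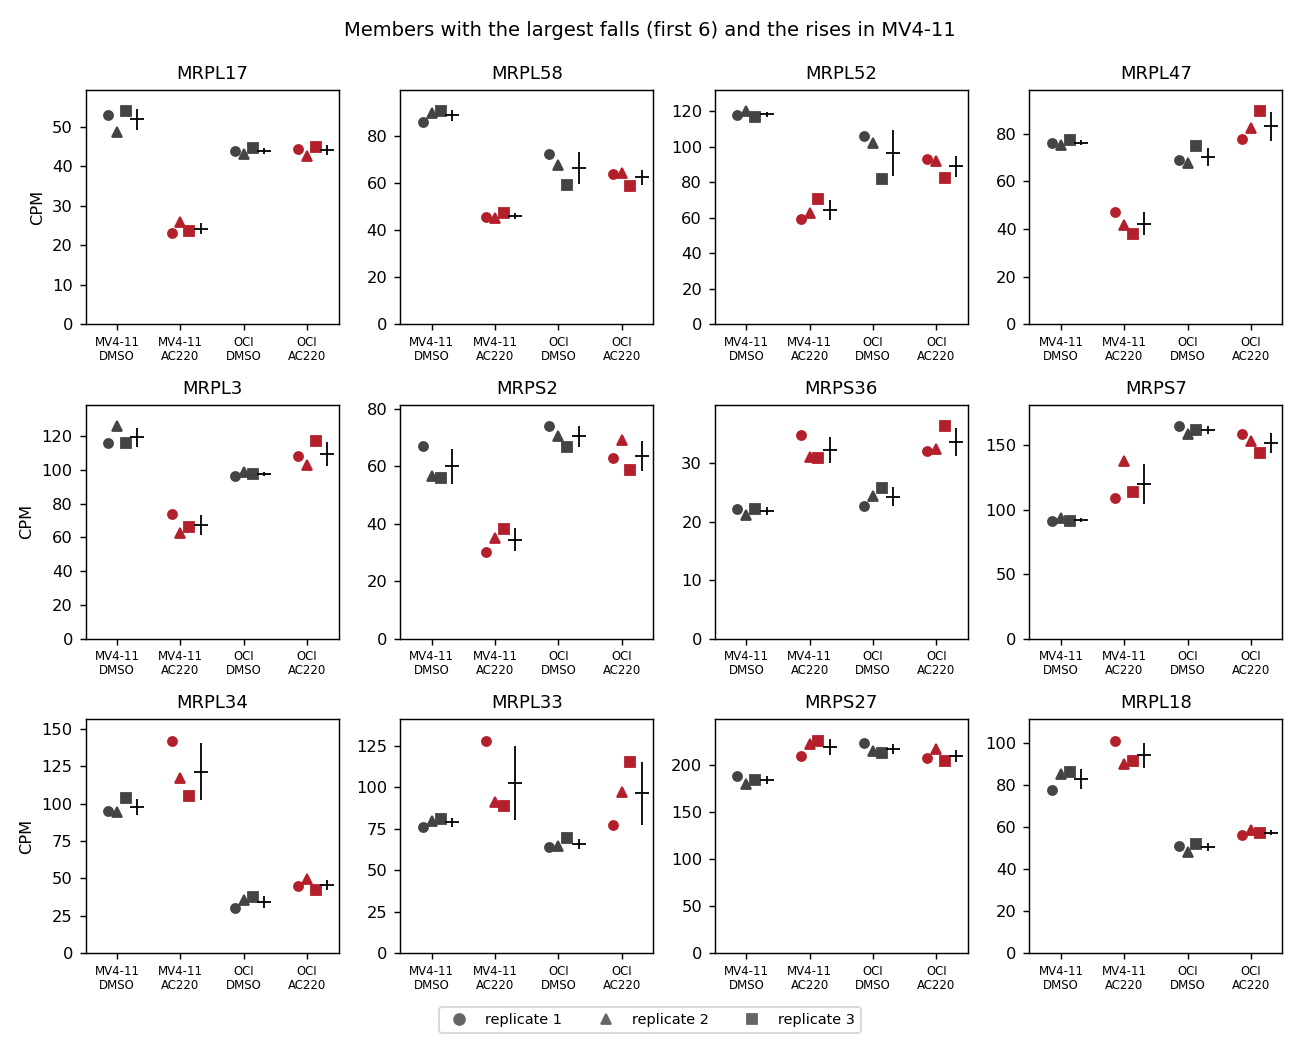
CPM in each library for the 6 members MRPL17, MRPL58, MRPL52, MRPL47, MRPL3 and MRPS2 and for the 6 members that rose in MV4-11; grey points are DMSO, red points AC220, the symbol gives the replicate, and the mark with bars is the mean ± SD of 3 libraries, with every axis starting at 0. The 6 falling genes have no overlap between the MV4-11 groups, and MRPL33 and MRPL34 have their highest MV4-11 value in AC220 replicate 1.

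Lower members were found in each class and region of the ribosome that was counted. For comparison, 26.9% of all genes tested were lower and 31.5% higher, so that 1 lower member in a small region says little. Of 45 members with a bacterial counterpart 30 were lower and 4 higher in MV4-11 (median log2 fold change -0.29), and of 30 found in mitochondria alone 18 were lower and 1 higher (median -0.39). Of 7 proteins of the central protuberance 4 were lower, with MRPL58 the lowest, and MRPL18 was higher. Of 6 at the exit of the peptide tunnel 3 were lower: MRPL47, MRPL22 (-0.27, adjusted p = 0.00651) and MRPL24 (-0.23, adjusted p = 0.0170). In the stalk that recruits translation factors 1 of 3 was lower (33.3%), a share near that of all genes. MRPL11, at the base of the stalk, had a log2 fold change of -0.30 (adjusted p = 0.00223), whereas MRPL10 had 0.14 (adjusted p = 0.182) and MRPL12 had -0.25 (adjusted p = 0.0644).

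Promoter sequence was looked at because so many members fell together in MV4-11. Of the 76 members 67 had an entry among the 27305 RefSeq promoters of GRCh38.p14, each from 250 bases before to 50 bases after the annotated start. MRPL2, MRPL10, MRPL13, MRPL15, MRPL21, MRPL23, MRPL35, MRPS28 and MRPS36 had none. On either strand CCGGAAG, a core bound by ETS factors such as GABPA, was found in 28 members, or 41.8%, against 10.7% of all promoters and 19.7% of the promoters of tested genes. The YY1 core AAGATGGC was found in 19 members, or 28.4%, against 3.03% and 5.47%. GCATGCGC, a core of the NRF1 site, was in 6 members, or 8.96%, against 3.27% and 5.69%. The E-box CACGTG bound by MYC was in 7.46% of members, against 7.43% and 10.3%, and TGATGNAA, a core of the ATF4 and CEBP composite, was in 1 member, MRPL55 (1.49%, against 3.67% and 1.76%). The NRF1 core read on both strands overlaps itself where it stands in a palindrome, and none of the other motifs contains another. A match is a string of letters and not a bound site.

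Upstream stretches of the named members that hold a match outside every annotated transcript are shown to let the motif be seen in its context, with the match in capitals, each read 5′ to 3′ on the strand of the gene. The stretches of the members that fell in MV4-11 are chr11:6683402-6683501 on the minus strand for MRPL17, chr3:131502972-131503071 on the minus strand for MRPL3, chr3:179604639-179604689 on the minus strand for MRPL47, chr14:22829641-22829740 on the plus strand for MRPL52 and chr17:75012450-75012549 on the plus strand for MRPL58. For MRPL33, which rose, it is chr2:27771619-27771718 on the plus strand.
MRPL17: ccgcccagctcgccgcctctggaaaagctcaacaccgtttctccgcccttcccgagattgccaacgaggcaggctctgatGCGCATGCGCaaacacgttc
MRPL52: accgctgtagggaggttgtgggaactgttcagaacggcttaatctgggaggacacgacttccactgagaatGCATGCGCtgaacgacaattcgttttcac
MRPL3: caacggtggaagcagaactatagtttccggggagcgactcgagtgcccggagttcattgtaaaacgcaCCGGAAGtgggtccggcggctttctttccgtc
MRPL47: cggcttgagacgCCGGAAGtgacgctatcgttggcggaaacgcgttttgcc
MRPL58: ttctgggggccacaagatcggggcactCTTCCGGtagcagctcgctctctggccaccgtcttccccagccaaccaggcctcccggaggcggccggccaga
MRPL33: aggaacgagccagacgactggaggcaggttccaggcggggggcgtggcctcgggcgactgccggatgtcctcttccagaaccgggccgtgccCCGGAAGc
The capitals mark the NRF1 core in MRPL17, on both strands, and in MRPL52, and the ETS core in the other 4, on the minus strand in MRPL58. Among the stretches shown, the ETS core thus stands upstream of 3 members that fell and of 1 that rose. The promoter of MRPL52, which also fell, holds the ETS core too, outside the stretch shown. The call of MRPL33 depended on single libraries, as given above.

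Members with and without a motif had close medians. In MV4-11 the median log2 fold change was -0.34 for the 28 members with the ETS core, of which 19 were lower, and -0.30 for the 39 without it, of which 24 were lower. It was -0.33 for the 19 members with the YY1 core (13 lower) and -0.30 for the 48 without it (30 lower). The NRF1 core gave -0.29 for 6 members (5 lower) and -0.31 for the 61 without it (38 lower). The E-box gave -0.27 for 5 members (4 lower) and -0.31 for the 62 without it (39 lower). The 1 member with the ATF4 and CEBP composite had -0.26 and was lower, as were 42 of the 66 without it. The ETS core stood in 17 of 41 MRPL and 11 of 26 MRPS promoters, and the YY1 core in 11 and 8. Of the factors themselves, NRF1 had 13.7 ± 1.35 CPM with DMSO and 12.2 ± 0.929 under AC220 in MV4-11 (log2 fold change -0.17, adjusted p = 0.292), YY1 152 ± 4.62 and 162 ± 5.02 (0.10, adjusted p = 0.185), GABPA 4.41 ± 0.833 and 4.87 ± 4.21 (0.19, adjusted p = 0.802), and MYC 43.2 ± 7.87 and 22.7 ± 11.4 (-0.91, adjusted p = 0.0645; SD, n = 3). None of these 4 passed the test in MV4-11. MYC had a log2 fold change of 1.27 in OCI-AML3 (adjusted p = 0.0979), and its AC220 effect differed between the lines (-2.18, SE 0.526, adjusted p = 0.00866). It also differed between the lines under DMSO (1.09, adjusted p = 0.0287) and under AC220 (-1.09, adjusted p = 0.0257), whereas NRF1, YY1 and GABPA passed in none of these comparisons.

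In OCI-AML3, which lacks the duplication, AC220 raised 7 members and lowered 1, and 68 passed in neither direction. Over all genes tested 3.44% were higher and 0.508% lower, against 9.21% and 1.32% of the members. The median log2 fold change was -0.04 (all genes 0.00), with -0.03 for MRPL genes, which held 4 of the 7 rises, and -0.04 for MRPS genes, which held 3 of them and the fall. None of these 8 calls held whichever library was left out: the number of higher members was 0 without DMSO replicate 1, DMSO replicate 2 or AC220 replicate 3 of OCI-AML3, 1 without its AC220 replicate 2, and 12 without its AC220 replicate 1. It was 10 without DMSO replicate 3, 12 without MV4-11 AC220 replicate 1, and 5 higher with 0 lower without both OCI-AML3 libraries numbered 3.

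MRPL16, the uL16 counterpart, had the largest called change in OCI-AML3, with 26.9, 27.4 and 38.6 CPM with DMSO and 52.1, 60.2 and 69.6 CPM with AC220 (log2 fold change 0.97, SE 0.207, adjusted p = 0.0331). Replicate 3 was the highest of both groups, and the groups did not overlap. MRPS36 had 22.6, 24.3 and 25.8 CPM against 32.1, 32.3 and 36.3 CPM (0.47, SE 0.0982, adjusted p = 0.0110). MRPS22 had 25.7, 24.2 and 27.5 CPM against 30.2, 37.6 and 37.7 CPM (0.45, SE 0.117, adjusted p = 0.0292). MRPL36, the counterpart of bL36, had 61.8, 63.3 and 67.7 CPM against 73.5, 92.8 and 88.7 CPM (0.41, SE 0.0971, adjusted p = 0.0206). In each of these genes every AC220 library was above every DMSO library. MRPL34 rose by 0.41 on the log2 scale (SE 0.103, adjusted p = 0.0255), MRPS23 by 0.37 (SE 0.0969, adjusted p = 0.0284) and MRPL42 by 0.34 (SE 0.0873, adjusted p = 0.0255). MRPS26 was the 1 member that fell, from 82.9, 74.1 and 72.4 CPM to 62.5, 60.7 and 53.1 CPM (-0.38, SE 0.0899, adjusted p = 0.0192).

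The base composition of the transcripts moved with these small changes. Across the 76 members, the log2 fold change in OCI-AML3 had a Spearman correlation of -0.54 with the GC content of the longest coding transcript, and across 12176 tested genes -0.26; genes of 1 library share its depth and handling and are not replicates. The median log2 fold change was 0.14 in the 38 members of lower GC content and -0.12 in the 38 of higher content, divided at 49.6%. In MV4-11 the same correlation was 0.05 across members and 0.10 across genes, with medians of -0.37 and -0.26 and with 25 and 23 members lower. Replicates differed along the same axis: the deviation of a library from its group's mean had a correlation with GC content across members of -0.53 in MV4-11 AC220 replicate 1, -0.52 in OCI-AML3 DMSO replicate 3 and -0.48 in OCI-AML3 AC220 replicate 3, against -0.37 to 0.47 in the other 9 libraries. Its part in the OCI-AML3 calls was not tested.

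Joining the 2 lines, 43 members were lower in MV4-11 and not called in OCI-AML3, and 21 were called in neither. In OCI-AML3 11903 of all 12392 genes tested were not called, so the 43 largely repeat the 48 lower calls of MV4-11. The shares of all genes with these joint patterns are not given here. MRPS36 and MRPL34 were higher in both lines, and MRPS26 was lower in both. MRPL36, MRPL42, MRPS22 and MRPS23 were lower in MV4-11 and higher in OCI-AML3, 4 were higher in MV4-11 alone, and MRPL16 was higher in OCI-AML3 alone.

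Whether the response differed between the lines was tested as the AC220 effect in MV4-11 minus that in OCI-AML3. This difference was negative for 40 members and positive for 3, while 33 did not pass. Over all genes tested 23.7% passed on the negative and 23% on the positive side, against 52.6% and 3.95% of the members. The median was -0.35 for the members and 0.03 for all genes, and it was -0.35 for MRPL genes (25 negative, 1 positive of 48) and -0.34 for MRPS genes (15 negative, 2 positive of 28). Of the 40 negative calls 32 held whichever library was left out. By GC content, 28 of the 40 were among the 38 members of lower and 12 among the 38 of higher content.

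The 8 most negative differences are named here. For MRPL17 the effect was -1.10 in MV4-11 and 0.00 in OCI-AML3, where the level was 43.9, 43.2 and 44.7 CPM with DMSO and 44.5, 42.6 and 45.0 CPM with AC220 (difference -1.10, SE 0.120, adjusted p = 9.37e-09). Its OCI-AML3 groups overlapped, and all their libraries lay between the 2 MV4-11 groups. For MRPL47 the level in OCI-AML3 was 68.8, 67.6 and 74.7 CPM with DMSO and 77.6, 82.3 and 89.4 CPM with AC220 (difference -1.09, SE 0.117, adjusted p = 7.26e-09), and for MRPL3 96.6, 98.9 and 97.4 against 108, 103 and 117 CPM (difference -0.99, SE 0.105, adjusted p = 6.35e-09). In these 2 genes every AC220 library lay above every DMSO library in OCI-AML3 and below in MV4-11, although the OCI-AML3 change alone did not pass (adjusted p = 0.0797 and 0.193). MRPS22 and MRPL42 passed in both lines with opposite signs, and their differences were -1.07 (SE 0.164, adjusted p = 4.07e-06) and -1.05 (SE 0.126, adjusted p = 5.34e-08).

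The most negative point estimates belonged to low or variable members: MRPL13 with -1.72 (SE 0.327, adjusted p = 0.00204), MRPL39 with -1.57 (SE 0.581, adjusted p = 0.0339) and MRPL32 with -1.53 (SE 0.475, adjusted p = 0.0235). On the positive side stood MRPS7 with 0.47 (SE 0.106, adjusted p = 0.000529), MRPL53 with 0.36 (SE 0.114, adjusted p = 0.0113) and MRPS27 with 0.30 (SE 0.0848, adjusted p = 0.00434). MRPL53 passed in neither line alone (0.14 in MV4-11 and -0.21 in OCI-AML3), and its last exon overlaps an exon of CCDC142 on the same strand.

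Under DMSO the summed levels of the lines were 5453 and 5334 CPM. Of the 76 members 22 were higher in MV4-11 than in OCI-AML3 and 16 were lower, which is 28.9% and 21.1%, where 32.1% and 33.4% of all genes tested were, so that neither share of the members was above that of all genes. Of these calls 16 of 22 and 12 of 16 held whichever library was left out. The median log2 ratio of MV4-11 to OCI-AML3 was 0.04; it was 0.07 for MRPL genes (15 higher, 8 lower) and -0.01 for MRPS genes (7 higher, 8 lower). MRPL34 differed most, with 95.1, 94.4 and 104 CPM in MV4-11 and 30.2, 35.3 and 37.5 CPM in OCI-AML3 (log2 ratio 1.51, SE 0.0998, adjusted p = 3.75e-13). MRPL57, a small protein of the large subunit, had 218, 202 and 195 CPM in MV4-11 and 95.9, 87.6 and 85.8 CPM in OCI-AML3 (1.19, SE 0.0679, adjusted p = 2.07e-15). Neither pair of groups came close to overlapping. MRPL32 (1.05), MRPS31 (1.04), MRPS12 (0.94), MRPS6 (0.88), MRPL11 (0.84) and MRPS22 (0.76) were the next higher members by log2 ratio. The call of MRPL32 was lost without MV4-11 DMSO replicate 2 or 3 or OCI-AML3 DMSO replicate 1 or 2 (adjusted p = 0.0509 to 0.0618).

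In the other direction, MRPL24, the uL24 counterpart near the exit of the tunnel, had 108, 101 and 93.8 CPM in MV4-11 and 209, 206 and 177 CPM in OCI-AML3 (log2 ratio -0.97, SE 0.0781, adjusted p = 6.53e-12). MRPS30 had 55.7, 58.6 and 51.8 CPM against 95.0, 96.4 and 101 CPM (-0.82, SE 0.0760, adjusted p = 1.44e-10), and MRPS7 91.6, 93.6 and 91.1 against 165, 159 and 162 CPM (-0.81, SE 0.0751, adjusted p = 1.19e-10). All 3 had each MV4-11 library below each OCI-AML3 library. MRPL36 (-0.71), MRPL38 (-0.69), MRPL40 (-0.56), MRPS17 (-0.46) and MRPS14 (-0.43) followed.

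Under AC220 the balance between the lines shifted. Of the members 47 were lower in MV4-11 and 11 higher, which is 61.8% and 14.5%, where 39.5% and 36.7% of all genes tested were. The median log2 ratio was -0.37, with -0.45 for MRPL genes (31 lower, 7 higher) and -0.29 for MRPS genes (16 lower, 4 higher). MRPS30 had the lowest ratio, with 37.4, 34.8 and 36.0 CPM in MV4-11 and 100, 114 and 115 CPM in OCI-AML3 (-1.61, SE 0.0799, adjusted p = 4.49e-17), and MRPL36 the next, with 37.1, 28.4 and 28.1 against 73.5, 92.8 and 88.7 CPM (-1.44, SE 0.103, adjusted p = 4.23e-13). For both, the lines stood further apart than under DMSO. Among the members whose groups did not overlap, MRPL13 (-1.29), MRPL24 (-1.01), MRPL42 (-0.98), MRPL47 (-0.97), MRPS2 (-0.89) and MRPS14 (-0.88) came next. MRPL39 had -1.06 with overlapping groups, and its call (adjusted p = 0.0250) was lost in 6 alternatives. The members highest in MV4-11 were MRPL34 (1.41), MRPS31 (0.94), MRPL57 (0.86), MRPL10 (0.84), MRPL18 (0.72), MRPL54 (0.70), MRPL11 (0.67) and MRPS12 (0.65).

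Read over both conditions, 9 members were higher in MV4-11 under DMSO and under AC220, 15 were lower under both, and 9 were higher under DMSO and lower under AC220. Another 23 were not called under DMSO and lower under AC220. The shares of all genes with these joint patterns are not given here, so the counts have no background beside them. Taken singly, 32.1% of all genes tested were higher and 33.4% lower under DMSO, and 36.7% and 39.5% under AC220. MRPS27 was the 1 member that was lower under DMSO and not called under AC220, with a log2 ratio of -0.24 (adjusted p = 0.00100) and then 0.06 (adjusted p = 0.333).

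**Figure D4:**
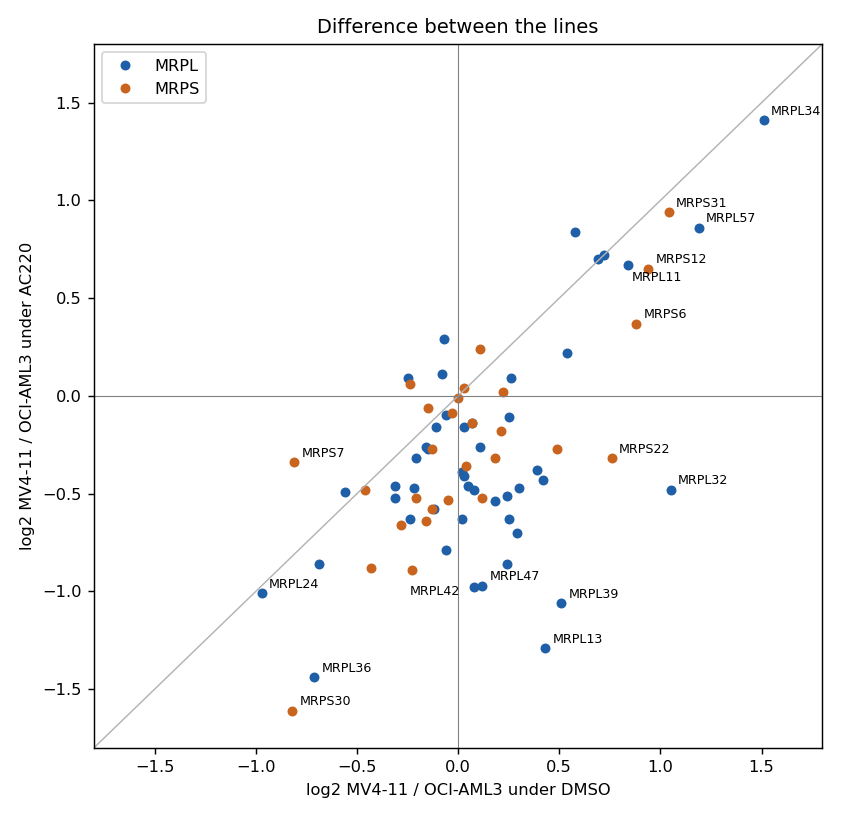
Log2 ratio of MV4-11 to OCI-AML3 under DMSO (x axis) and under AC220 (y axis) for the 76 members, MRPL in blue and MRPS in orange, with the line of equal ratios in grey. Most points lie below the grey line, MRPL34 stands at 1.51 and 1.41, and MRPS30 at -0.82 and -1.61.

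A few members varied so much between replicates that their changes are poorly measured. The median coefficient of variation (CV) of the members was 4.79% in MV4-11 DMSO, 8.73% in MV4-11 AC220, 6.62% in OCI-AML3 DMSO and 7.23% in OCI-AML3 AC220, against 6.65%, 10.6%, 8.07% and 8.77% for the 9624 tested genes in the same range of level. A CV above 20% was reached by 0, 7, 4 and 3 members, all of them MRPL genes but MRPS28. MRPL39, a mitochondria-specific protein near the exit of the tunnel, had 2.61, 3.02 and 3.60 CPM in MV4-11 DMSO, 3.42, 2.14 and 1.18 in MV4-11 AC220, 1.55, 2.13 and 2.75 in OCI-AML3 DMSO and 2.07, 4.24 and 7.84 in OCI-AML3 AC220. MRPL32, the bL32 counterpart, had 13, 16.6 and 15.2, then 17.7, 9.77 and 8.36, then 7.46, 5.09 and 8.96, and then 11.9, 15.0 and 23.4 CPM in the same order of groups. In both genes the MV4-11 groups overlapped, replicate 1 was the highest of MV4-11 AC220, and replicate 3 was the highest of OCI-AML3 AC220. MRPL16 followed the same order within the AC220 groups, with 52.0, 34.7 and 30.5 CPM in MV4-11 and 52.1, 60.2 and 69.6 CPM in OCI-AML3. The deviations of these 2 libraries had negative correlations with GC content across members (-0.53 and -0.48), and those of the other 4 AC220 libraries positive ones (0.27 to 0.47).

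**Figure D5:**
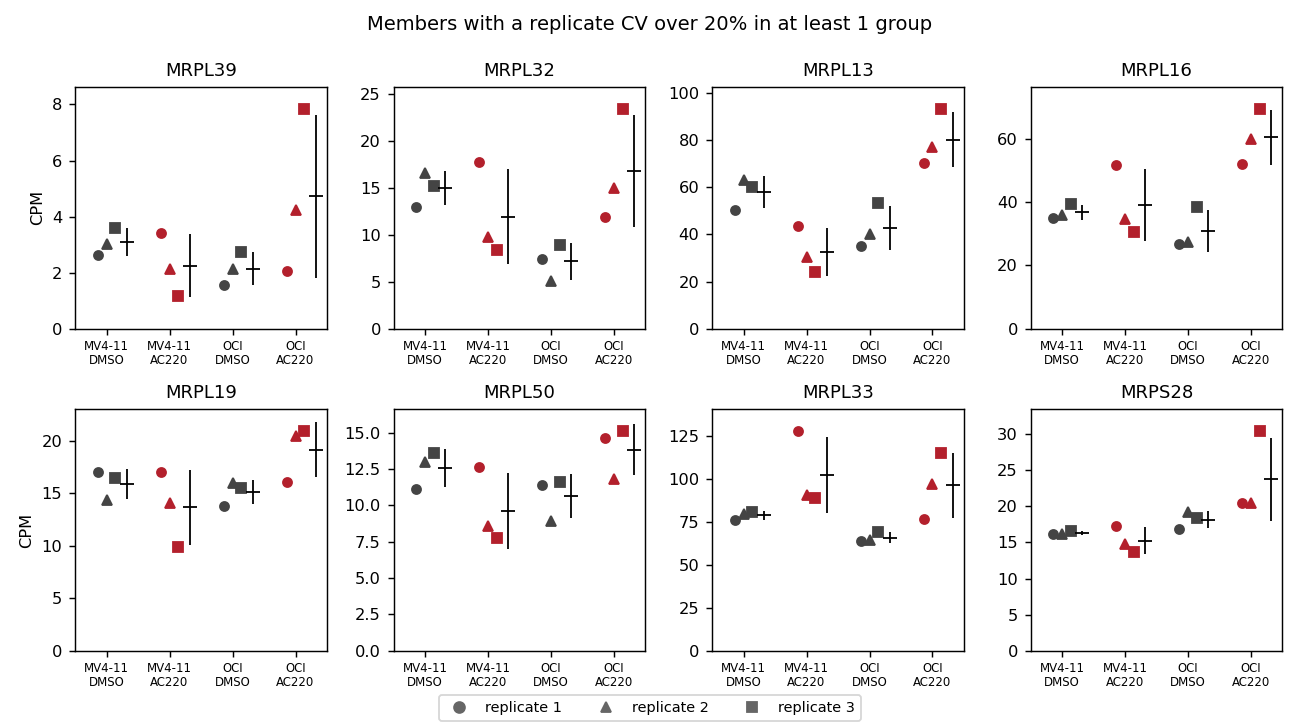
CPM in each library for the 8 members with a CV above 20% in at least 1 group; grey points are DMSO, red points AC220, the symbol gives the replicate, and marks with bars are means ± SD of 3 libraries. In MV4-11 AC220 replicate 1 is the highest library in all 8 panels, and in OCI-AML3 AC220 replicate 3 is.

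Other genes of mitochondrial translation give the setting. Of 5 ribosomal subunits with another kind of symbol, GADD45GIP1 was lower under AC220 in MV4-11, with 150 ± 7.19 CPM with DMSO and 104 ± 3.35 CPM with AC220 (log2 fold change -0.52, adjusted p = 3.37e-07). DAP3, AURKAIP1, CHCHD1 and PTCD3 did not pass (-0.17, -0.14, 0.04 and -0.07). Of 17 factors that start, extend, end or assist translation in mitochondria, 7 were lower and 4 higher in MV4-11 (41.2% and 23.5%), with a median log2 fold change of -0.28; as given above, 26.9% of all genes tested were lower and 31.5% higher. SLIRP, which stabilises mitochondrial mRNAs together with LRPPRC, had 301 ± 10.9 CPM against 171 ± 3.53 CPM (-0.82, adjusted p = 1.47e-12), and the elongation factor TUFM 226 ± 17.8 against 143 ± 13.5 CPM (-0.67, adjusted p = 2.75e-05). The recycling factor GFM2 (0.37, adjusted p = 4.97e-05) and the membrane insertase OXA1L (0.32, adjusted p = 0.000401) were higher.

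Of 26 tested genes of ribosome assembly and rRNA modification 10 were lower and 4 higher in MV4-11 (38.5% and 15.4%, median -0.15). MALSU1, the assembly factor that binds MRPL14, had 63.9 ± 3.15 CPM with DMSO and 29.1 ± 3.00 CPM with AC220 (-1.14, adjusted p = 5.92e-12). DHX30, an RNA helicase of assembly, had -0.57 (adjusted p = 4.35e-07), and the GTPase NOA1 had 0.49 (adjusted p = 6.53e-05). Of 17 tested genes of mitochondrial transcription and DNA maintenance 6 were lower and 3 higher (35.3% and 17.6%, median -0.17), a share of lower genes not far from that of all genes. TFAM, which packages and transcribes mitochondrial DNA, had 82.4 ± 2.05 CPM against 40.6 ± 2.68 CPM (-1.02, adjusted p = 1.24e-12). In OCI-AML3 the translation factors had a median of -0.08, with the smallest adjusted p at 0.0695 (TACO1, -0.33). There 1 assembly gene was higher (3.85%; C1QBP, 0.66, adjusted p = 0.0285). Of the transcription genes 2 were higher (11.8%), POLG2 with 0.61 and GRSF1 with 0.24 (adjusted p = 0.0492), and 1 lower (5.88%, TOP1MT, -0.31). Over all genes tested 3.44% were higher and 0.508% lower. Whether these calls hold without single libraries is not given here.

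Of the 13 mRNAs that the ribosome translates, 5 were higher and 3 lower in MV4-11 (38.5% and 23.1%), close to the shares of all genes, with a median log2 fold change of 0.07, the same as over all genes. MT-ND3, of complex I, had 8103 ± 415 CPM with DMSO and 10858 ± 1088 CPM with AC220 (0.42, adjusted p = 6.56e-06), and MT-ATP6, of ATP synthase, 9243 ± 785 and 6703 ± 683 CPM (-0.46, adjusted p = 3.52e-06). The mitochondrial rRNAs were not analysed here.

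Some members share sequence or position with other genes. In GENCODE v29 12 of the 76 have a last exon that overlaps another gene of the count table, among them MRPS7, MRPL47, MRPL53, MRPS16 and MRPS24, and 32 have named pseudogenes, up to 5 for MRPL57 and MRPS36. How reads with several positions were counted was not given in the sources used here, so their values are uncertain to that extent. SD values in the text are over 3 libraries throughout.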

How the data were processed

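Total RNA from MV4-11 and OCI-AML3 cells was made into QuantSeq 3' libraries per the labels' protocols, 3 per group. Per the submitters' processing notes, reads were handled with HISAT2 2.0.4, with featureCounts of Subread 2.0.0, with cutadapt 1.9.1 and with limma 3.42.2, on hg19; the sources used here do not give the annotation, the strand setting or the treatment of reads with several positions. The raw counts by gene symbol (19505 rows) are as the authors deposited them. The normalised log2 values of 11075 genes, also made by the authors, served as an alternative input only. A row without a symbol, 0.00343% to 0.00503% of a library's counts, was left out. No column of other samples was present.

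Genes were filtered with filterByExpr, scaled by TMM and tested by quasi-likelihood in edgeR 4.0.16 under R 4.3.3, with robust estimation, 4 group means and 8 residual degrees of freedom. P-values were adjusted by Benjamini-Hochberg over 12392 genes and called under 0.05. The common biological coefficient of variation (8.28%) was estimated over all groups. CPM use TMM-scaled library sizes, and an SE is the absolute log2 fold change divided by the square root of F. No pair of libraries was identical (chi-square per degree of freedom 2.79 to 10.6), so each counted as a replicate. Same-numbered libraries were not treated as pairs (correlations of deviations -0.181 to 0.180). Between the 2 OCI-AML3 groups these correlations were all positive, with 0.0843, 0.0494 and 0.18 for replicates 1, 2 and 3. A batch shared by equal numbers in that line therefore remains possible. The members, subunit classes, gene lists and motifs were chosen with earlier results of these data known. Named members are, per comparison, up to 8 in each direction with the largest called change and no overlap (called alone for the difference of effects), those against the more frequent direction, and the 5 highest and 3 lowest by level; others are named where noted, or as examples of a list. The procedure was tested on simulated data. Alternatives were other size factors, filters and thresholds, DESeq2 1.42.0, limma-voom and limma on the deposited values (limma 3.58.1), a replicate block, the compared libraries alone and each library left out. GC content and overlaps came from GENCODE v29, promoters from RefSeq (GRCh38.p14); no coordinates in hg19 are given.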

Additional observations from a re-analysis of the deposited data

Results flagged for a closer look

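The AC220 effect differed between the lines by a test of the difference itself (edgeR, MV4-11 minus OCI-AML3) for 43 members. Of these, 40 were on the negative and 3 on the positive side, which is 52.6% and 3.95% of the members. Among all genes tested, 23.7% were on the negative and 23% on the positive side. Under the same naming rule the negative ones with the largest estimates were MRPL13 (-1.72), MRPL39 (-1.57), MRPL32 (-1.53), MRPL17 (-1.10), MRPL47 (-1.09), MRPS22 (-1.07), MRPL42 (-1.05) and MRPL3 (-0.99), and the positive ones were MRPS7 (0.47), MRPL53 (0.36) and MRPS27 (0.30). The AC220 libraries had a coefficient of variation above 20% in both lines for MRPL39 and MRPL32, and in MV4-11 for MRPL13. The deviations from the group mean had a Spearman correlation with GC content across the 76 members of -0.53 in MV4-11 AC220 replicate 1 and -0.48 in OCI-AML3 AC220 replicate 3, and of 0.27 to 0.47 in the other 4 AC220 libraries. The part of this in the 3 differences was not tested. MRPL39, MRPL32 and MRPL53 lost the call when single libraries were left out, and the other 8 named here kept it.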

How the results depend on the processing

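With a minimum absolute log2 fold change of 0.5 beside the threshold, the members called fell to 1 higher and 19 lower for AC220 in MV4-11. They fell to 1 and 0 in OCI-AML3 and to 0 and 25 for the difference of effects. Between the lines they fell to 12 and 6 under DMSO, and to 8 and 26 under AC220. The shares of all genes at this minimum are not given here, so these counts have no background beside them. In OCI-AML3 the counts were 0 higher and 0 lower at an adjusted p under 0.01, 3 and 0 with limma on the deposited values, and 2 lower with DESeq2; without both libraries numbered 3, chosen after seeing the data, they were 5 and 0. The median of MRPL minus that of MRPS genes was then -0.07 in OCI-AML3 (main value 0.01) and 0.14 between the lines under DMSO (0.09), where limma on the deposited values gave 0.03. Leaving out 1 library at a time gave, for AC220 in MV4-11, 4 to 6 higher and 45 to 51 lower members and a median difference of 0.05 to 0.08; in OCI-AML3 0 to 12 higher, 0 to 3 lower and -0.03 to 0.02; for the difference of effects 2 to 3, 35 to 40 and -0.05 to 0.01; between the lines 18 to 25, 13 to 17 and 0.04 to 0.14 under DMSO, and 10 to 11, 42 to 47 and -0.15 to -0.10 under AC220. Where an arm was left with 2 libraries the spread was pooled over the groups; the cause of these shifts was not tested. With the replicate number as a block, 5 members were higher and 48 lower in MV4-11. The same block gave 6 and 1 in OCI-AML3 and 3 and 39 for the difference. The labels do not say whether equal numbers share a batch. The 81 named results had 1685 values in alternative fits, and the stricter threshold and the fold minimum were not among these. At an adjusted p under 0.05, 1579 of the values kept their side of the threshold, 106 lost it and 0 changed sign. In every such fit 58 results passed, and 23 missed the threshold in at least 1. MRPL39 had the lowest level of the members, with libraries from 1.18 to 7.84 CPM, and the part of depth in its spread was not tested.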

Other observations

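The proteins of the cytosolic ribosome, looked at after the values of the members were seen, went the other way under AC220 in MV4-11. Of 79 tested genes 71 were higher and 2 lower, with a median log2 fold change of 0.41. Beside them stood 6 higher and 48 lower of the 76 mitochondrial ones, with a median of -0.31. The shares of all genes tested were 31.5% higher and 26.9% lower. In OCI-AML3 5 of the 79 were higher and 2 lower (median -0.08), where 3.44% and 0.508% of all genes tested were. The AC220 effect was more positive in MV4-11 than in OCI-AML3 for 62 of the 79 and more negative for 3. The median difference was 0.48, and 23% and 23.7% of all genes tested passed on these sides. Under DMSO 21 cytosolic genes were higher and 31 lower in MV4-11 than in OCI-AML3 (median -0.09). There 32.1% and 33.4% of all genes tested were higher and lower. Under AC220 56 were higher and 6 lower (median 0.34), where 36.7% and 39.5% of all genes tested were. Cytosolic ribosomal proteins have many pseudogenes, and how reads with several positions were counted was not given in the sources used here.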
